A study of Mus musculus with 6 samples.

Results

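The ephrins, semaphorins, Slits and netrins, and the Eph, plexin, Robo and Unc5 receptors that bind them, were described as 1 set of guidance genes in organoids grown from mouse pancreatic ductal adenocarcinoma. Members were taken by symbol, as every Epha, Ephb, Efna, Efnb, Sema, Plxna to Plxnd, Robo, Slit, Ntn and Unc5 gene with a value. This gave 48 of 14254 genes: 29 ligands and 19 receptors. The families were chosen with earlier results of these data known. RNA-seq libraries had been made with a TruSeq kit from total RNA of 2 groups, each of 3 samples described as biological replicates. The shJag1 organoids carried a lentiviral short hairpin RNA against Jag1, the hairpin numbered 3, and were labelled as a Jag1 knockdown. The shCtrl organoids carried a control hairpin and were labelled wild type. Both came from the single line KPF_5.3G and grew in the same medium, with EGF, FGF-10, gastrin, nicotinamide, N-acetylcysteine, R-spondin-1 and Noggin, so 1 line and 1 hairpin stand behind every value. The design asks what Jag1, a membrane-bound ligand of Notch receptors, does in tumour-initiating cells of a hybrid epithelial and mesenchymal state.

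Guidance genes were named for steering axons, but epithelia use them to hold cells together or keep them apart. Ephrins are bound to the cell surface, A-type by a lipid anchor and B-type by a transmembrane segment, and activate Eph receptor tyrosine kinases on neighbouring cells. Semaphorins signal through plexins, which act on small GTPases and the actin skeleton. The secreted class 3 forms mostly need a neuropilin co-receptor, and the membrane-bound class 4 forms mostly use B-type plexins. Slits are secreted ligands of Robo receptors, and netrins bind DCC, neogenin and Unc5 receptors. In the pancreas and in pancreatic cancer, EphA2, Slit and Robo are the best studied of these.

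Values are normalised counts, that is, reads of a gene divided by 1 size factor per library, and values of a group are listed in the order of replicates 1, 2 and 3. Jag1 itself had 226, 321 and 557 in shJag1 organoids, against 412, 983 and 847 in shCtrl organoids, so the shJag1 mean was 49.2% of the shCtrl mean. The groups overlapped, since shJag1 replicate 3 lay above shCtrl replicate 1, and permuting the 6 values in every way (exact test, two-sided) put p at 0.2, with 0.1 the smallest this design allows. The log2 change of Jag1 was -1.03 (SE 0.45, adjusted p = 0.691) in limma and -1.02 (SE 0.27, adjusted p = 0.00628) in DESeq2 with a term for the replicate number. The libraries held 22268997 to 35172593 reads. Mitochondrial genes took 0.551%, 1.01% and 1.20% of reads in shJag1 organoids, against 0.592%, 1.54% and 2.02% in shCtrl organoids, lower in shJag1 within each number and lowest in both replicate 1 libraries. Both replicate 1 libraries stood apart from the other 4 along the first principal component, which held 55.8% of the variance. They correlated with each other at r = 0.99 across genes, as did shCtrl replicates 2 and 3, with shJag1 replicates 2 and 3 at 0.98. The second component, with 29.0% of the variance, separated shJag1 from shCtrl libraries in replicates 2 and 3. The labels do not say what a replicate number stands for. Of 10 markers of duct and carcinoma epithelium all 10 were present, with summed normalised counts of 244288 to 618625 in shJag1 and 182415 to 248662 in shCtrl organoids. Values were at hand for 2 of 10 fibroblast markers (sums of 28.9 to 45.5 in shJag1 and 35.6 to 44.8 in shCtrl organoids), for 2 of 10 endothelial markers (sums of 43.0 to 59.6 in shJag1 and 7.47 to 69.6 in shCtrl organoids) and for 3 of 10 neural markers (sums of 278 to 416 in shJag1 and 290.3 to 302 in shCtrl organoids). Among 10 immune markers 1 had a value, Cd68, which also occurs outside immune cells, with 117 to 988 normalised counts in shJag1 and 98.6 to 136 in shCtrl organoids. Cd68 was higher in shJag1 organoids within each number and was called by DESeq2 with the replicate term (1.67, adjusted p = 0.00794). Part of the epithelial list moved with the groups: 5 of its 10 genes, Cldn4, Epcam, Krt8, Krt19 and Muc1, were called higher by DESeq2 with the replicate term. The part of these genes, and of the mitochondrial share, in the differences of guidance genes was not tested. In such bulk samples fewer cells of a type and less RNA per cell cannot be told apart.

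Without a term for the replicate number, no guidance gene passed the test in limma or edgeR, and with it DESeq2 called 11. The filter of at least 10 normalised counts in at least 3 samples left 47 members, 28 ligands and 19 receptors, and removed the netrin Ntn1, which had 36.8, 3.69 and 8.41 in shJag1 organoids, against 15.7, 5.74 and 4.98 in shCtrl organoids. By limma on log2 values 0 members were called at an adjusted p below 0.05, as were 0% of all 13997 tested genes, with 4 members higher and 1 lower at an unadjusted p below 0.05, beside 4.62% and 2.68% of all genes. edgeR called 0 members and 0% of all genes as well. DESeq2 without the term called 0 members higher and 1 lower, Slit2, beside 0.722% and 0.522% of all genes. DESeq2 with the replicate number as a term called 8 members higher, which is 17% of those tested against 4.57% of all genes, and 3 lower, 6.38% against 2.58% of all genes. These were 5 ligands higher and 2 lower of 28, and 3 receptors higher and 1 lower of 19. limma and edgeR with the same term each called 0 members, beside 0.0143% of all genes higher and 0% lower. The smallest adjusted p of a member in limma with the term was 0.136. Calls below are those of DESeq2 with the term, and each rests on the differences within replicate numbers. On simulated data, with changes alike in every replicate number, this fit made more false calls than its threshold allows. Single calls among the members may therefore be false. Log2 changes are shJag1 minus shCtrl throughout.

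The groups did not overlap in 4 members that were higher and 1 that was lower in shJag1 organoids, 8.51% and 2.13% of those tested, beside 6.29% and 5.44% of all genes. All 3 replicate numbers gave a higher shJag1 value for 15 members and a lower one for 13, which is 31.9% and 27.7%, beside 22.3% and 19.7% of all genes. The median log2 change in limma was 0.16 over the 28 tested ligands and -0.07 over the 19 receptors, against 0.00 over all genes. The ligand median was 0.077 in edgeR and 0.083 in DESeq2, both without the term. In limma it was -0.0080 without shCtrl replicate 1, 0.36 without shJag1 replicate 1, 0.30 without shCtrl replicate 2 and 0.07 without shJag1 replicate 2. The receptor median changed sign as well, to 0.13, 0.12 and 0.15 without shJag1 replicate 1, shCtrl replicate 2 and shCtrl replicate 3.

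**Figure D1:**
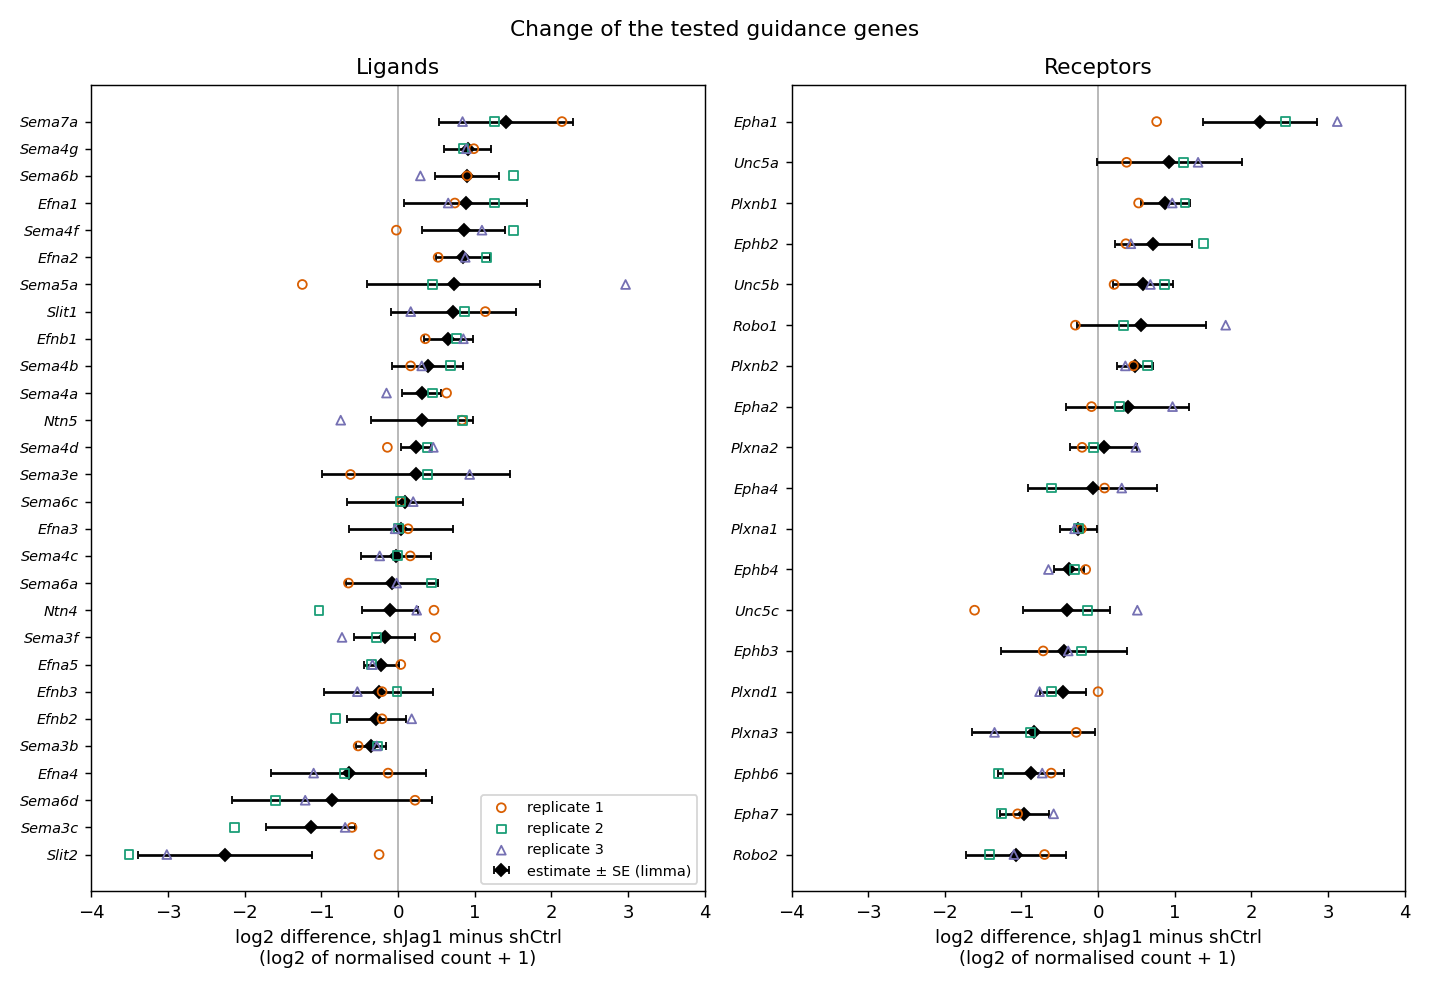
Log2 difference between shJag1 and shCtrl organoids for the 28 ligands (left) and 19 receptors (right) tested, on the scale of log2 of the normalised count plus 1. Black diamonds are limma estimates with their SE over 3 samples per group, open symbols the differences within replicates 1, 2 and 3. Ligand estimates ran between -2.26 for Slit2 and 1.41 for Sema7a, and receptor estimates between -1.07 for Robo2 and 2.11 for Epha1.

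Levels per length, as normalised counts per kilobase of the longest protein-coding transcript, spanned more than 3 orders of magnitude. The receptor tyrosine kinase Epha2 led at 7499 per kilobase in shJag1 and 4988 in shCtrl organoids, followed by the plexin Plxnb2 at 3465 per kilobase in shJag1 and 2468 in shCtrl organoids. No other receptor exceeded 786 per kilobase in either group mean, the shCtrl level of Ephb4. Among ligands, by the mean over both groups, the levels per kilobase of Sema3c (779.6 in shJag1 and 1774 in shCtrl organoids), Sema4b (1409 in shJag1 and 1038 in shCtrl) and Efna1 (1575 in shJag1 and 784 in shCtrl) were highest, with ranges over libraries that overlapped one another. At the low end stood Ntn1, Slit1, Ntn5 and Unc5a, each under 10 per kilobase in both groups. Positions of the members described most closely are, in GRCm38, Epha1 on chromosome 6 from 42358487 to 42373268 (minus strand), Slit2 on chromosome 5 from 47983138 to 48307733 (plus strand), Sema4g on chromosome 19 from 44989101 to 45003397 (plus strand), and Plxnb2 on chromosome 15 from 89155549 to 89180788 (minus strand). Exonic overlap with a gene on the other strand touched several members, and the library kit does not mark strand. Of the called members, Epha1 shares 236 exonic bases with Zyx and Plxnb1 shares 257 with Gm7628. Among the others, Plxna1 shares 970 with Gm26811, the most of any member, and Ntn5 shares 519 with Sec1. Efna3 shares 344 with Gm15998 and Efna4 shares 168 with 4731419I09Rik. Gm7628 and Gm26811 had no value here.

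**Figure D2:**
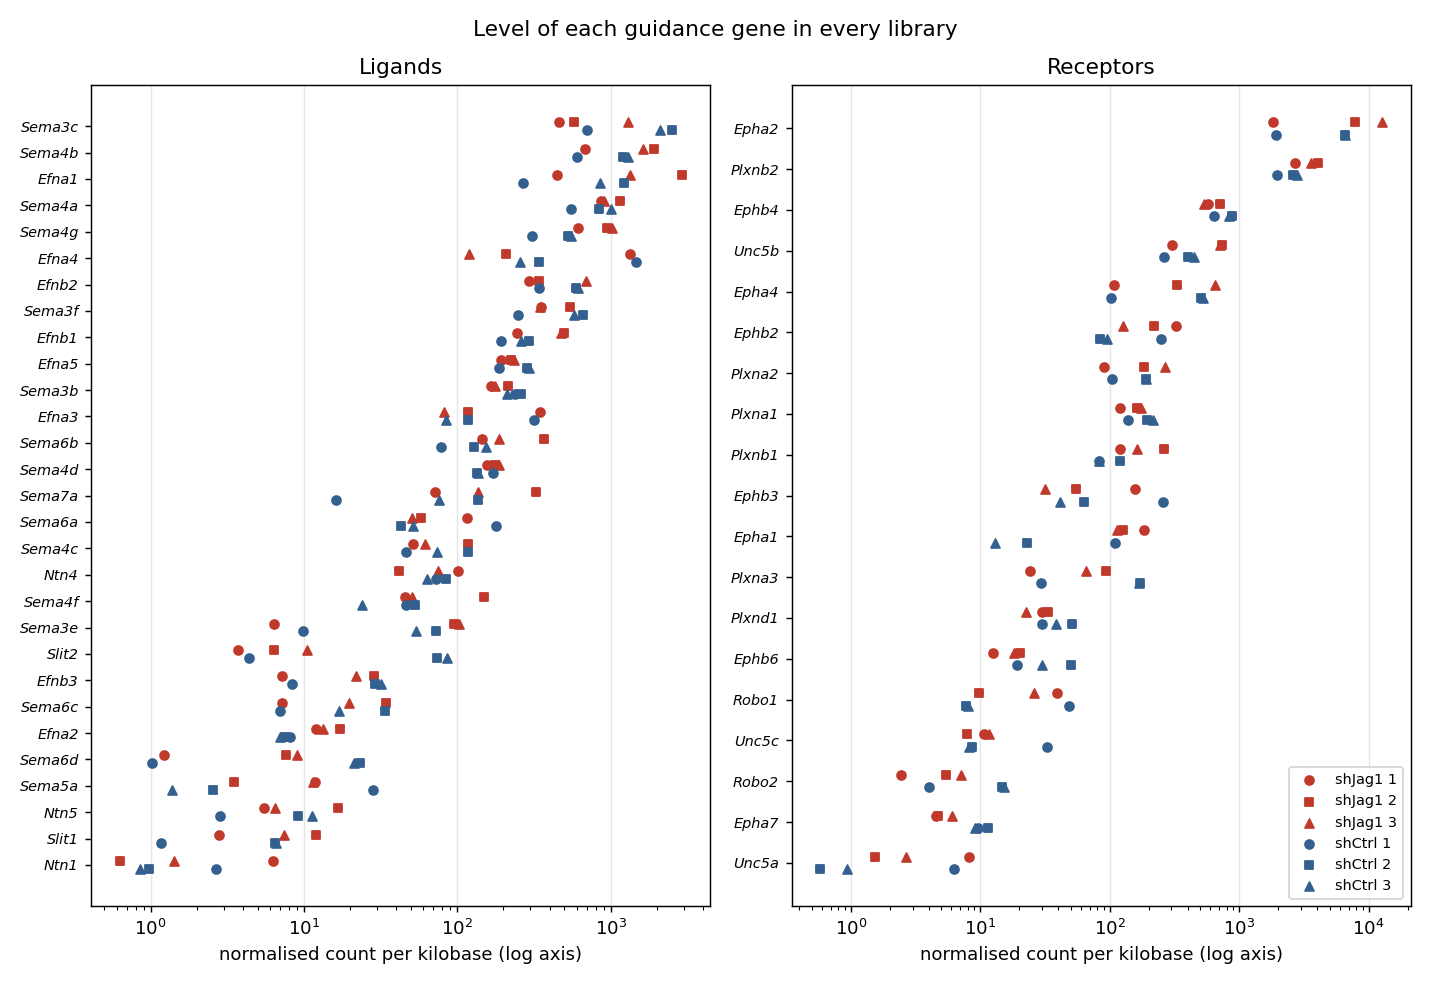
Level of the 29 ligands (left) and 19 receptors (right) in every library, as normalised counts per kilobase on a log axis, ordered by the mean over 6 libraries. Red symbols are shJag1 and blue symbols shCtrl libraries, with the shape giving the replicate number. Epha2 and Plxnb2 lie above the other receptors, and for Epha2, Epha4 and Slit2 the replicate 1 libraries of both groups lie far below the shCtrl libraries of replicates 2 and 3.

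Among the ephrins, Efna1 and Efnb1 were called higher and none of the other 6 passed. Efna1, the ligand with high affinity for EphA2, had 729, 4795 and 2189.9 in shJag1 organoids, against 436, 2011 and 1391 in shCtrl organoids. The means were 2571 ± 2059.6 in shJag1 and 1279 ± 794 in shCtrl organoids (SD, n = 3 each). Each shJag1 value exceeded the shCtrl value of its number, while the ranges of the groups overlapped, with both replicate 1 libraries low. The change was estimated at 0.89 (SE 0.21, adjusted p = 0.00126) by DESeq2 with the term and at 0.88 (SE 0.80, adjusted p = 0.857) by limma. Efnb1, a transmembrane ligand of EphB receptors, had 803, 1622 and 1540.4 in shJag1 organoids, against 628, 957 and 853 in shCtrl organoids. Here shJag1 replicate 1 was the low value of its group and fell among the shCtrl values. The change of Efnb1 was 0.66 (SE 0.21, adjusted p = 0.025) in DESeq2 with the term. Efnb2, the ligand of EphB4 and the B-type ephrin with the highest level per length, had 1408, 1634 and 3338 in shJag1 organoids, against 1628, 2873 and 2951 in shCtrl organoids, a change of -0.28 (SE 0.24, adjusted p = 0.6) in that fit whose sign differed between replicate numbers. Efna2 was low, with 25.4, 36.9 and 28.3 in shJag1 organoids, against 17.4, 16.1 and 14.9 in shCtrl organoids. Its groups did not overlap, but DESeq2 with the term gave 0.89 (SE 0.67, adjusted p = 0.535). Efna4 differed more by replicate number than by hairpin, with 2140.0, 334 and 191 in shJag1 organoids, against 2343, 544 and 411 in shCtrl organoids. It was lower in shJag1 organoids within each number, and DESeq2 with the term gave -0.64 (SE 0.29, adjusted p = 0.181). Efna3 also split by replicate number, with 821, 279 and 194 in shJag1 organoids, against 749.8, 277 and 199 in shCtrl organoids. Its sign differed between numbers, and that fit gave 0.04 (SE 0.22, adjusted p = 0.964). Efna5 and Efnb3 changed by -0.22 and -0.26 and did not pass (adjusted p = 0.634 and 0.832 in DESeq2 with the term).

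Membrane-bound semaphorins held 3 of the higher calls. Sema4g, a class 4 member, had 2773, 4293 and 4676 in shJag1 organoids, against 1398, 2384 and 2523 in shCtrl organoids, with means of 3914 ± 1007 in shJag1 and 2101 ± 613 in shCtrl organoids (SD, n = 3 each). Every shJag1 value lay above every shCtrl value, and the differences within replicates 1, 2 and 3 were 0.99, 0.85 and 0.89 on the log2 scale, the most even of the called ligands. DESeq2 with the term gave 0.91 (SE 0.16, adjusted p = 6.52e-06), and limma gave 0.91 (SE 0.31, adjusted p = 0.637). Sema6b, a transmembrane class 6 semaphorin, had 544, 1371 and 701 in shJag1 organoids, against 291, 482 and 573 in shCtrl organoids, with shJag1 replicate 2 the highest by far and shJag1 replicate 1 below shCtrl replicate 3. Its change was 0.90 (SE 0.29, adjusted p = 0.028) in DESeq2 with the term. Sema7a, which is lipid-anchored and binds beta1 integrins and plexin C1, had 237, 1073 and 452 in shJag1 organoids, against 53, 449 and 252 in shCtrl organoids. It was higher in shJag1 organoids within each number, by 2.14, 1.25 and 0.84 on the log2 scale, and shCtrl replicate 1 was the lowest library. The change of Sema7a was 1.40 (SE 0.31, adjusted p = 6.11e-04) in DESeq2 with the term and 1.41 (SE 0.87, adjusted p = 0.78) in limma.

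The remaining class 4 semaphorins did not pass. Sema4b, the class 4 member with the highest level per length, had 2680.2, 7618 and 6394 in shJag1 organoids, against 2392, 4748 and 5161 in shCtrl organoids and changed by 0.39 (SE 0.19, adjusted p = 0.233) in DESeq2 with the term. Sema4f had 187, 613 and 209 in shJag1 organoids, against 189.7, 216 and 97.2 in shCtrl organoids, with shJag1 replicate 2 standing above the other 5 libraries, and an adjusted p of 0.14 in DESeq2 with the term. Changes of Sema4a, Sema4c and Sema4d, the last a ligand of plexin B1, were 0.31, -0.03 and 0.24, with adjusted p of 0.487, 0.976 and 0.646 in the same fit. Of the class 6 genes beside Sema6b, Sema6a and Sema6c were at -0.08 and 0.09 and Sema6d at -1.02, with adjusted p of 0.932, 0.948 and 0.282. Sema5a changed by -1.25, 0.45 and 2.97 within replicates 1, 2 and 3, so that its sign depended on the number.

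Sema3c, a secreted semaphorin that acts through neuropilins with plexins, was called lower. It had 2535, 3157 and 7151 in shJag1 organoids, against 3845, 13845 and 11540.3 in shCtrl organoids. The shJag1 value was the lower one within each number, and most of the gap came from replicate 2, where the log2 difference was -2.13 against -0.60 and -0.69 in replicates 1 and 3. The means were 4281 ± 2505 in shJag1 and 9743 ± 5236 in shCtrl organoids (SD, n = 3 each), and the difference came to -1.13 (SE 0.31, adjusted p = 0.00786) by DESeq2 with the term and -1.14 (SE 0.58, adjusted p = 0.718) by limma. Sema3b was lower within each number as well, with 569, 735 and 597 in shJag1 organoids, against 817, 888 and 724 in shCtrl organoids, and did not pass (adjusted p = 0.329 in DESeq2 with the term). Sema3e, a direct ligand of plexin D1 that needs no neuropilin, had 43.9, 652 and 705 in shJag1 organoids, against 67.9, 501 and 369 in shCtrl organoids, so that replicates 2 and 3 averaged 9.96 times replicate 1 while DESeq2 with the term gave 0.28 (SE 0.34, adjusted p = 0.743). Sema3f was at -0.18 with a sign that differed between numbers.

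Slit2, a secreted ligand of Robo receptors, had the lowest log2 change of the 47 tested members. Its normalised counts were 36.8, 63.9 and 104 in shJag1 organoids, against 43.9, 738 and 848 in shCtrl organoids, with means of 68.2 ± 33.7 in shJag1 and 544 ± 436 in shCtrl organoids (SD, n = 3 each). In replicates 2 and 3 the shJag1 values were several-fold below the shCtrl values, at log2 differences of -3.51 and -3.02, whereas in replicate 1 both libraries were low and differed by -0.25. The difference came to -2.37 (SE 0.54, adjusted p = 8.11e-04) by DESeq2 with the term and to -2.26 (SE 1.13, adjusted p = 0.717) by limma. Slit1 was low in every library, with 15.8, 67.6 and 42 in shJag1 organoids, against 6.63, 36.8 and 37.4 in shCtrl organoids. Netrin-4 (Ntn4), a netrin that binds laminins of basement membranes, had 368, 151 and 274 in shJag1 organoids, against 266, 310.1 and 232 in shCtrl organoids, and its sign differed between numbers. Its change was -0.09 (SE 0.36, adjusted p = 0.945) in DESeq2 with the term. Ntn5 stayed under 30 normalised counts in each library.

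**Figure D3:**
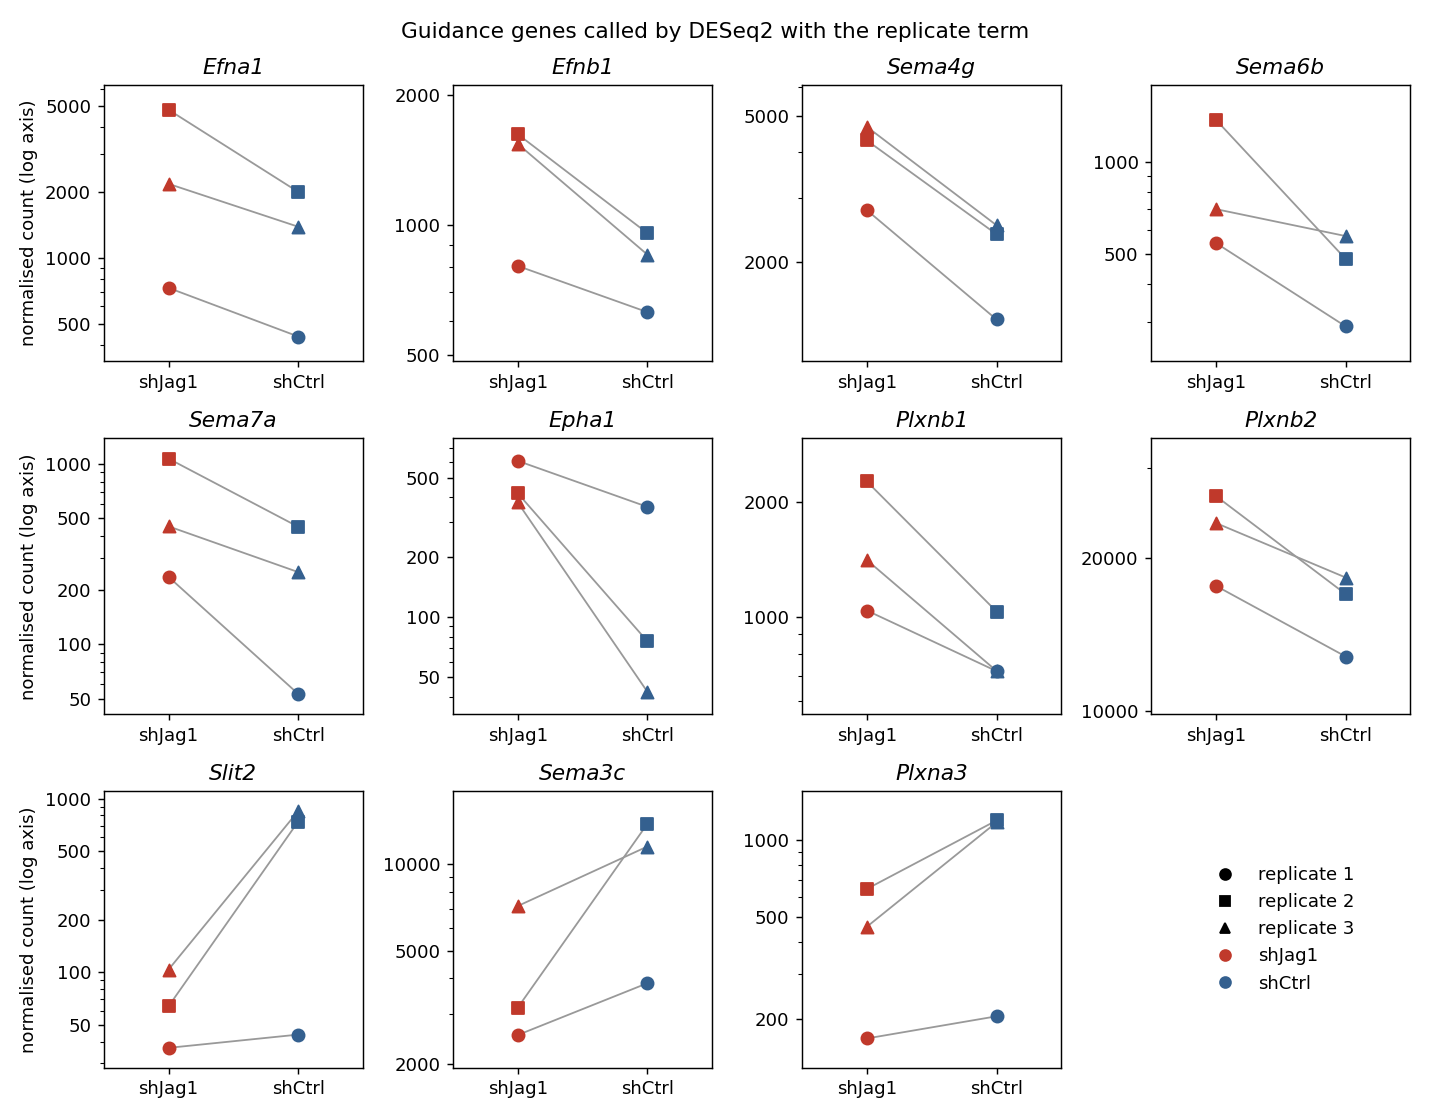
Normalised counts on a log axis in every library for the 11 guidance genes called by DESeq2 with the replicate term, shJag1 (red) left of shCtrl (blue), with lines joining libraries of the same replicate number. The 8 genes of the first 2 rows lie higher in shJag1 libraries within each number, and Slit2, Sema3c and Plxna3 lie lower, with the smallest gap for Slit2 and Plxna3 in replicate 1.

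Of the 8 Eph receptors 1 was called, Epha1, and Epha2 and Epha4 were not. Epha2, a receptor kinase that is abundant in many carcinomas, had 7086, 30953 and 49990.1 in shJag1 organoids, against 7523, 25525 and 25506 in shCtrl organoids. The replicate 1 libraries of both groups were low, shJag1 replicate 3 was the highest, and the differences within numbers were -0.09, 0.28 and 0.97 on the log2 scale. Its change was 0.39 (SE 0.24, adjusted p = 0.396) in DESeq2 with the term. Epha4, which binds ephrins of both types, had 684, 2088 and 4125 in shJag1 organoids, against 645, 3190.4 and 3331 in shCtrl organoids. Its libraries split by replicate number rather than by hairpin, and DESeq2 with the term gave -0.07 (SE 0.24, adjusted p = 0.933). Epha1, the first Eph receptor described, had 607, 418 and 376 in shJag1 organoids, against 357, 75.8 and 42.4 in shCtrl organoids, and averaged 467 ± 123 in shJag1 and 158 ± 173 in shCtrl organoids (SD, n = 3 each). All shJag1 values lay above all shCtrl values, but shCtrl replicate 1 came within reach of shJag1 replicate 3, and the differences within numbers were 2.45 and 3.12 in replicates 2 and 3 against 0.76 in replicate 1. The change of Epha1 was 2.11 (SE 0.44, adjusted p = 2.11e-04) in DESeq2 with the term and 2.11 (SE 0.75, adjusted p = 0.643) in limma. Zyx, whose exons overlap those of Epha1 on the other strand, had 1947, 1843 and 1356 in shJag1 organoids, against 1142, 2190.1 and 1909.7 in shCtrl organoids. In replicate 1 both genes were higher in shJag1 organoids, and in replicates 2 and 3 Zyx was lower while Epha1 was higher. Whether reads of Zyx entered the Epha1 counts was not tested.

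None of the 4 B-type Eph receptors was called. Ephb4, a receptor of ephrin-B2 and the highest of them per length, had 2494, 3079 and 2312 in shJag1 organoids, against 2790.4, 3824 and 3624 in shCtrl organoids and changed by -0.37 (SE 0.19, adjusted p = 0.259) in DESeq2 with the term. Ephb3 and the kinase-dead Ephb6 were lower within each number, at -0.45 and -0.89, and did not pass (adjusted p = 0.284 and 0.152 in that fit). Ephb2 was higher within each number, with 3519, 2388 and 1388 in shJag1 organoids, against 2737, 918 and 1033 in shCtrl organoids, and missed the threshold at an adjusted p of 0.061 in that fit. Epha7 was low, with 30.7, 31.9 and 40.5 in shJag1 organoids, against 64.6, 78.1 and 61 in shCtrl organoids. Every shJag1 value of Epha7 lay below every shCtrl value, and DESeq2 with the term gave -0.98 (SE 0.48, adjusted p = 0.244).

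Of 6 plexins 2 were called higher and 1 lower. Both B-type plexins with values were the higher ones: Plxnb2, the second highest receptor per length, and Plxnb1, the receptor of Sema4D. Plxnb2 had 17628, 26470.2 and 23430.5 in shJag1 organoids, against 12808, 16988 and 18311 in shCtrl organoids, with means of 22509.8 ± 4492 in shJag1 and 16036 ± 2873 in shCtrl organoids (SD, n = 3 each). Within each number the shJag1 value was higher, and only shJag1 replicate 1 fell among the shCtrl values. DESeq2 with the term gave a change of 0.49 (SE 0.16, adjusted p = 0.0413). Plxnb1 had 1038, 2265 and 1408 in shJag1 organoids, against 719, 1031 and 720.0 in shCtrl organoids, and shCtrl replicate 2 came close to shJag1 replicate 1 without reaching it. Its change was 0.88 (SE 0.21, adjusted p = 0.00186) in DESeq2 with the term and 0.88 (SE 0.32, adjusted p = 0.659) in limma. The A-type plexin Plxna3 was called lower, with 168, 645 and 459 in shJag1 organoids, against 205, 1193 and 1173 in shCtrl organoids. Replicate 1 was low in both groups, and the gap stood in replicates 2 and 3. DESeq2 with the term gave -0.85 (SE 0.27, adjusted p = 0.0286) for Plxna3, and for Plxna1 and Plxna2 -0.26 and 0.08, which did not pass (adjusted p = 0.451 and 0.918). Plxnd1, the receptor of Sema3E, was at -0.46 (SE 0.29, adjusted p = 0.428). Whether B-type and A-type plexins differed in their change was not tested.

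Robo and Unc5 receptors gave no call. Robo1, the higher of the Robo receptors per length, had 297, 73.7 and 196 in shJag1 organoids, against 365, 58.6 and 61 in shCtrl organoids, and the sign of its difference varied with the number. Robo2 was lower within each number, with 21, 46.7 and 61.1 in shJag1 organoids, against 34.8, 126 and 132 in shCtrl organoids, at an adjusted p of 0.101 in DESeq2 with the term. Unc5b, a netrin receptor and the highest of its family, had 1780.4, 4322 and 4201 in shJag1 organoids, against 1541, 2364 and 2618 in shCtrl organoids. Its shJag1 value was higher within each number, and its change of 0.59 (SE 0.21, adjusted p = 0.0544) in DESeq2 with the term missed the threshold. Unc5c had 103, 76.2 and 112 in shJag1 organoids, against 316, 83.8 and 78.5 in shCtrl organoids, with shCtrl replicate 1 far above the others, and Unc5a stayed under 33 normalised counts in each library.

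Summed over families, shJag1 organoids had 2402, 4466 and 3853 normalised counts per kilobase of class 4 semaphorins, against 1732, 2873 and 3099 in shCtrl organoids. The summed plexins had 3098, 4807 and 4303 per kilobase in shJag1 and 2359, 3341 and 3517 in shCtrl organoids. Most of that sum was Plxnb2 alone, at mean levels of 3465 per kilobase in shJag1 and 2468 in shCtrl organoids, while Plxna1, Plxna3 and Plxnd1 were lower within each number and the median log2 change of the 6 plexins in limma was -0.09. Class 3 semaphorins summed to 986, 1433 and 1926 per kilobase in shJag1 organoids and to 1200.1, 3519 and 2943 in shCtrl organoids, of which Sema3c made up the largest share in shCtrl organoids. The groups overlapped in each of these sums, and within each replicate number the direction was the same.

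**Figure D4:**
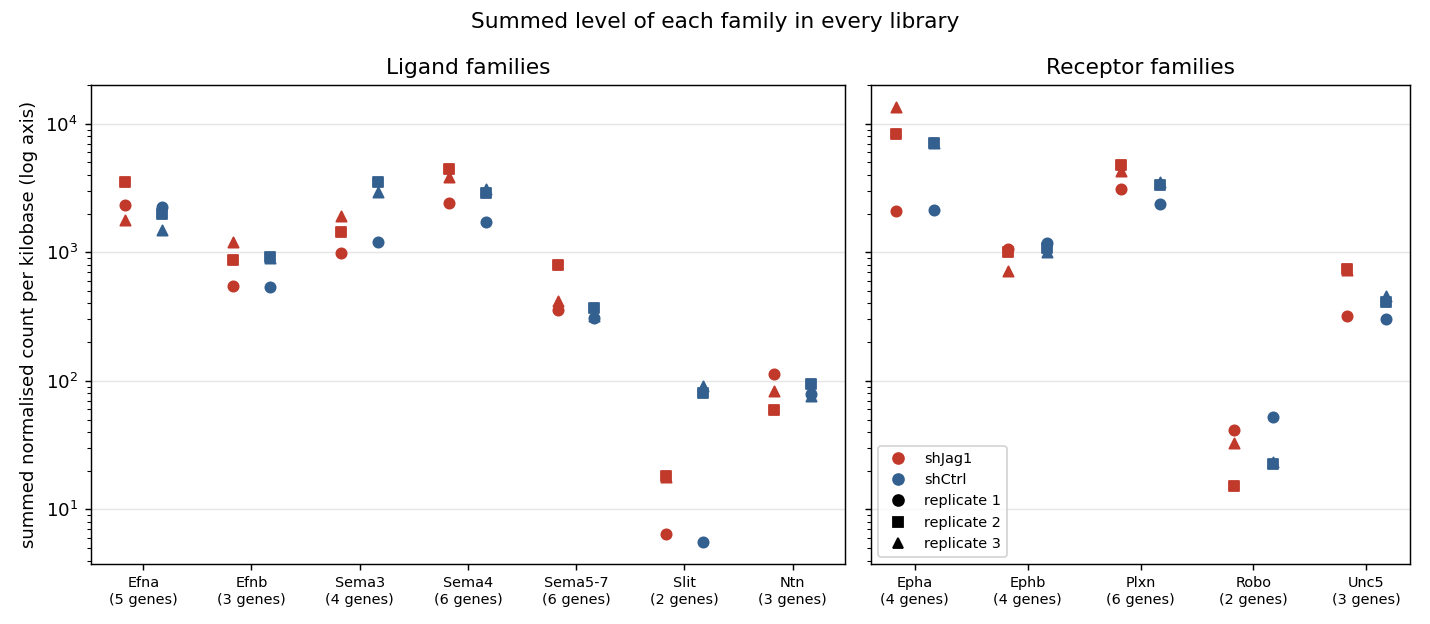
Summed normalised counts per kilobase of each ligand family (left) and receptor family (right) in every library, on a log axis. Red symbols are shJag1 and blue symbols shCtrl libraries, shapes give the replicate number, and the number of genes summed stands under each family. Sums of class 3 semaphorins and of Slits lie lower in shJag1 libraries of replicates 2 and 3, and Epha sums split by replicate number. Taken singly in those replicates, Slit2, Sema3b, Sema3c and Sema3f were lower in shJag1 libraries, and Slit1 and Sema3e were higher.

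Many members differed by replicate number. Both replicate 1 libraries lay below the other 4 for 21 of the 47 tested members and above them for 8, 44.7% and 17%, beside 23.3% and 23.7% of all genes. Replicates 2 and 3 averaged 4.52 times replicate 1 for Epha2, 4.79 times for Epha4, 4.46 times for Efna1 and 10.9 times for Slit2. For Efna4 and Ephb3 the ratio was 0.165 and 0.231. The calls depended on which numbers were used. Without replicate 1, DESeq2 with the term called 15.1% of all genes and 7 of the 8 higher and 2 of the 3 lower members kept their call, Plxnb2 (adjusted p = 0.0832) and Sema3c (adjusted p = 0.165) being lost. Epha2 at 0.62 (adjusted p = 0.0428), Unc5b, Ephb2, Sema4f, Efna4 and Sema6d were added there. Without replicate 2 that fit called 0.693% of genes, and Epha1 was the 1 member left (1.90, adjusted p = 0.0416). Without replicate 3 it called 0.907% of genes and 3 members, Sema6b (adjusted p = 0.0495), Sema7a (adjusted p = 0.00561) and Sema3c (adjusted p = 0.031). In limma on replicates 2 and 3 alone, 4 members were called higher (Efnb1, Epha1, Sema4g and Unc5b) and 4 lower (Plxna3, Robo2, Sema6d and Slit2), beside 6.04% and 3.57% of all genes. In DESeq2 with the term the change of Sema4g was 0.86, 0.93 and 0.93 without replicates 1, 2 and 3, whereas that of Slit2 was -3.27, -1.71 and -1.92.

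**Figure D5:**
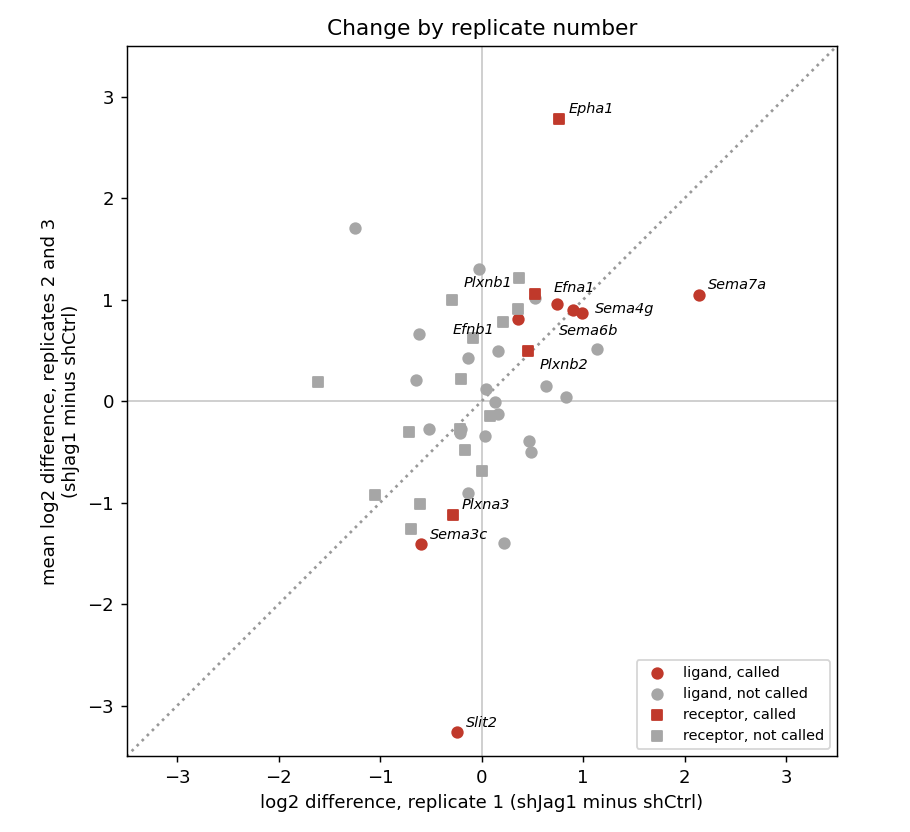
Log2 difference between shJag1 and shCtrl in replicate 1 (horizontal) against the mean of the differences in replicates 2 and 3 (vertical) for the 47 tested guidance genes, on the scale of log2 of the normalised count plus 1. Red symbols are members called by DESeq2 with the replicate term, circles are ligands, squares are receptors, and the dotted line marks equal differences. Sema4g lies near the line, Slit2 and Epha1 lie far from it along the vertical axis, and Sema7a lies to the right of it.

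Promoter sequence was at hand for 41 of the 48 members from RefSeq (GRCm38.p6), taken here as the 250 bases before the start that RefSeq gives. That start differed from the GENCODE start for 20 of the 41, by 17 bases for Slit2 and by 354843 for Robo1, the widest gap. They were searched on both strands for the core motif of RBPJ, the DNA-binding partner of Notch, GTGGGAA, and for the E-box CAGGTG, which ZEB1 and SNAI2 bind. The RBPJ core occurred in 5.42% of all 32851 promoters and in 2 of the 41, Epha7 and Plxnb2, of which Plxnb2 is among the 11 called members. The E-box occurred in 17.2% of all promoters and in 6 of the 41, of which 1, Epha1, is among the called members. The motifs do not overlap in these windows. Shown are these windows and that of Slit2, the member with the lowest log2 change, which holds neither, all 5′ to 3′ on the strand of the gene with matches in capitals. The Epha1 window is chr6:42373269-42373518 (minus strand), with the E-box starting 71 bases before the RefSeq start. The Plxnb2 window is chr15:89180789-89181038 (minus strand), with the RBPJ core in reverse complement starting 91 bases before it. The Slit2 window is chr5:47982905-47983154 (plus strand). A match describes the letters and shows no binding.
Epha1: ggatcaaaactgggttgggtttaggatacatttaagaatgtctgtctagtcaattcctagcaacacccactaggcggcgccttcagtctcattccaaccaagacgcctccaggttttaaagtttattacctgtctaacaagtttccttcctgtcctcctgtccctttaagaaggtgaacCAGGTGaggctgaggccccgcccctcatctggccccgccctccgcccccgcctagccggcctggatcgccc
Plxnb2: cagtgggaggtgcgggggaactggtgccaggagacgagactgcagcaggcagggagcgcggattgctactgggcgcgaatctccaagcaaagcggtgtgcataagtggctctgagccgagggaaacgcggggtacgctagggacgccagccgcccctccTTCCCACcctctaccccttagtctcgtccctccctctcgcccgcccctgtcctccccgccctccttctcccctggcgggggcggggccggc
Slit2: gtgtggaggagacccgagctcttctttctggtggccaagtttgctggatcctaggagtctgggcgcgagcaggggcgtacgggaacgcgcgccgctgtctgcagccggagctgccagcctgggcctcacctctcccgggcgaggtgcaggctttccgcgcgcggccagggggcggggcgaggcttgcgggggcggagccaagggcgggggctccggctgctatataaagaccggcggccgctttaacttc

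Other genes of these pathways, 71 co-receptors, sheddases, adaptors and other signalling partners, had values for 65, of which 64 were tested. By limma 0 of them were called, as were 0% of all genes. At an unadjusted p below 0.05 in limma 1 was higher and 4 were lower, 1.56% and 6.25%, beside 4.62% and 2.68% of all genes. edgeR called 0 partners and 0% of all genes. DESeq2 without the term called 0 partners higher and 1 lower, 0% and 1.56%, beside 0.722% and 0.522% of all genes. DESeq2 with the replicate term called 1 higher and 4 lower, 1.56% and 6.25%, beside 4.57% and 2.58% of all genes. limma and edgeR with the same term called 0 partners, beside 0.0143% of all genes higher and 0% lower. The adjusted p of the 5 genes called by DESeq2 with the term ran between 0.141 and 0.159 in limma with the term. Ngef, which acts downstream of EphA4, was the higher one, with 364, 1253 and 1013 in shJag1 organoids, against 200.5, 658 and 508 in shCtrl organoids and a change of 0.93 (SE 0.20, adjusted p = 2.75e-04). Flrt2, a membrane protein that binds Unc5 receptors, had 35.1, 45.5 and 50.4 in shJag1 organoids, against 85.3, 203 and 203 in shCtrl organoids and changed by -1.82 (SE 0.39, adjusted p = 3.05e-04) in the same fit. Neogenin (Neo1), a receptor of netrins and repulsive guidance molecules, had 1693, 1642 and 1816 in shJag1 organoids, against 2258, 2743 and 3306 in shCtrl organoids. In Flrt2 and Neo1 every shJag1 value lay below every shCtrl value. Neo1 changed by -0.67 (SE 0.19, adjusted p = 0.0096) in DESeq2 with the term. The actin oxidoreductase Mical2 had 1632, 2057 and 3009.8 in shJag1 organoids, against 2413, 3736 and 4300.2 in shCtrl organoids, lower within each number, and changed by -0.64 (SE 0.18, adjusted p = 0.00829). The glypican Gpc1 had 529, 181 and 145 in shJag1 organoids, against 794, 327 and 232 in shCtrl organoids, where both replicate 1 libraries were high, and changed by -0.70 (SE 0.23, adjusted p = 0.0404). The neuropilins are co-receptors of class 3 semaphorins, and neither was called. Nrp1 had 603, 270.3 and 361 in shJag1 organoids, against 840.1, 299 and 361 in shCtrl organoids, and DESeq2 with the term gave -0.21 (SE 0.23, adjusted p = 0.708). Nrp2 had 1171, 2510.4 and 2469 in shJag1 organoids, against 1059, 2244 and 1953 in shCtrl organoids, and that fit gave 0.22 (SE 0.17, adjusted p = 0.559). The netrin receptor Dcc had no value here.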

How the data were processed

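RNA-seq libraries of 3 shJag1 and 3 shCtrl organoid samples were analysed. The authors aligned reads with STAR 2.5.2b and used DESeq2 1.32.0 on GRCm38, per the submitters' processing notes; the counting tool and annotation are not given in the sources used here. The deposited values are gene counts divided by 1 size factor per library, a normalised signal of 14302 features, 48 of them ERCC spike-ins. The same table was deposited 6 times and used once. Whole reads were recovered for 100% of values (tolerance 0.001), giving 22268997 to 35172593 reads per library. Of 14254 genes, 257 that did not reach 10 normalised counts in at least 3 samples were left out, and 13997 were tested.

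limma 3.58.1 (R 4.3.3) was fitted without a replicate term and with a trend on log2(normalised count + 1), all 6 samples, Benjamini-Hochberg threshold 0.05, so log2 changes understate those of low genes. edgeR 4.0.16 and DESeq2 1.42.0 were run on the recovered reads as alternatives, each with and without the replicate number as a block. Deviations from group means correlated at 0.68, 0.57 and 0.44 between same-numbered samples, and at 0.38 and 0.37 between shJag1 replicate 2 and shCtrl replicate 3 and between shJag1 replicate 3 and shCtrl replicate 2. By the rule used, every same-numbered correlation above 0.1, the numbers were taken to pair the samples. That pairing comes from the data, not from the labels. The correlations of 0.38 and 0.37 between different numbers also exceed 0.1, so the rule cannot tell how replicates 2 and 3 pair. The fits were tested on simulated data, where the share of false calls exceeded the threshold in all blocked fits, most in DESeq2. There genes were changed alike in every replicate number, unlike several members here, so that share need not hold for these data. DESeq2 with the block gave no adjusted p for 543 genes, which count as tested and not called. Other alternatives were spike-in scaling, other filters and pseudocounts, and leaving out samples.

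Members, the list of 71 pathway partners and the marker lists were chosen with earlier results of these data known. Genes given in every sample were Jag1, Epha2, Epha4, called members, the highest member of each family per length and those with the largest changes; others named were chosen after their values were seen. Lengths are those of the longest protein-coding transcript in GENCODE M21. A further 21 symbols of these families had no value and were not analysed here.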

Additional observations from a re-analysis of the deposited data

How the results depend on the processing

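Without a replicate block limma called 0 genes, and other settings moved that count. limma and edgeR with the replicate block each called 2 genes higher. DESeq2 without it called 101 higher and 73 lower, with 1 guidance member and 1 partner lower. With the replicate block DESeq2 called 640 higher and 361 lower, with 8 members higher and 3 lower and 1 partner higher and 4 lower, and gave Jag1 -1.02 (adjusted p = 0.00628). Spike-in scaling moved the median of all genes to -0.18, gave 77 genes higher and 39 lower and 0 members, and put the ligand median at -0.016. limma on replicates 2 and 3 only called 846 genes higher and 500 lower, with 4 members each way and 4 partners higher and 2 lower.

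Leaving out samples gave 0 to 1250 genes higher and 0 to 870 lower, 0 to 11 members higher and 0 to 4 lower, and 0 to 7 partners higher and 0 to 4 lower. The ligand median ran between -0.0080 and 0.36, the receptor median between -0.28 and 0.19, and the Jag1 change between -1.41 and -0.73. In limma without shCtrl replicate 1, which called 210 genes higher and 84 lower and put the ligand median at -0.0080, Epha1 was called higher and Slit2 lower. DESeq2 with the replicate block and without replicate 1 gave 1250 genes higher and 870 lower and Jag1 -1.11; without replicate 2 it gave 62 and 35, and without replicate 3 it gave 88 and 39.

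Among values for single genes under alternatives, 434 kept their direction and side of the threshold, 49 passed it and 11 changed sign. The reference for these counts was limma on all samples, which called 0 genes. No value could therefore lose a call, and a kept side means that the gene was not called in the alternative either. Of the 49 that passed, 16 did so in DESeq2 with the replicate block. Those genes were named in part for their calls in that fit, so these passes add no support. Epha4 was 0.63 without shJag1 replicate 1, 0.30 without shCtrl replicate 2, 0.33 without shCtrl replicate 3 and 0.19 in DESeq2 with the replicate block without replicate 2. Ntn4 was 0.25 without shJag1 replicate 2 and 0.35 in that DESeq2 fit. Nrp1 was 0.05 without shJag1 replicate 2 and 0.24 without shCtrl replicate 1. Epha2 was -0.20 without shJag1 replicate 3 and -0.20 without shCtrl replicate 1, where Nrp2 was -0.11. Over all such leave-outs Epha2 ran up to 1.21 and Nrp2 up to 0.58, and Epha4, Ntn4 and Nrp1 down to -0.85, -0.39 and -0.52. None of these 5 genes passed the threshold in limma on all samples, where 0 of all tested genes did. The causes were not tested. All values rest on 3 samples per group from 1 line and 1 hairpin.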
